A study of Mus musculus with 20 samples.

Results

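The genes described here were 10 components of the bone morphogenetic protein (BMP) pathway and its iron-regulatory arm. They comprised the ligands Bmp2 and Bmp4, the receptors Bmpr1a, Bmpr2 and Acvr1, the signal transducers Smad1 and Smad5, the inhibitory Smad6, and the target genes Hamp and Atoh8. They were taken by symbol through every probe set that the platform annotation assigned to that symbol alone, which gave 24 of the 45037 probe sets and 10 of the 18194 genes on the array. The study followed Hepa1-6, a mouse hepatoma line of C57L origin, after addition of TGFβ1 at 1 ng per ml. All cells, the controls included, had been kept for 4 h in medium depleted of growth factors before the start. Treated and untreated (basal) cells were collected at 0, 1, 3, 6 and 10 h in biological duplicate, which gave 20 single-colour Affymetrix arrays in 10 groups of 2. The labels describe the treated 0 h arrays as equivalent to the untreated ones, so that time served as a check. Hepa1-6 is an established tumour line, and the labels name no other cell type in the cultures.

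BMP ligands bind a complex of type I receptors, among them Bmpr1a and Acvr1, and type II receptors, among them Bmpr2. The type I receptor phosphorylates Smad1 and Smad5, which enter the nucleus with Smad4 and bind target genes, and Smad6 is a target that feeds back to block them. In hepatocytes this route controls Hamp, the gene of hepcidin, the peptide hormone that removes the iron exporter ferroportin from cell surfaces. TGFβ acts mainly through its own receptors and Smad2 and Smad3.

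In the deposited values, which had been normalized across arrays, the arrays were alike in brightness. Their median log2 intensities lay between 5.15 and 5.21, and duplicates correlated over all probe sets at 0.9958 to 0.9971. Levels below are log2 intensities, differences are treated minus untreated on that scale, errors of differences are standard errors (SE) from the limma fit, and a gene was called at a Benjamini-Hochberg adjusted p under 0.05 over all genes. Of 13 measured hepatocyte markers, 10 lay above the median of the array medians, with albumin (Alb) at a mean of 12.01 and Afp at 12.78. Ahsg and Fgg lay at 4.45 and 3.83. Of 12 stellate cell and fibroblast markers, 5 exceeded that median, the brightest being Dcn at 13.42. The same held for 1 of 10 endothelial markers, Kdr at 5.36, and 4 of 9 macrophage and leukocyte markers, the brightest being Cd14 at 7.87.

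At 0 h no gene of the array was called between the treated and untreated cells, the members included. At 1 h, 4 of the 10 members were higher in treated cells (Bmp4, Acvr1, Smad6 and Atoh8) and none lower, where 2.24% of all genes were called in either direction and 1.91% as higher. At 3 h, 5 members were higher (Bmpr2, Acvr1, Smad1, Smad5 and Smad6), beside 15.3% of all genes called in either direction and 6.73% as higher. At 6 h, 6 were higher (Bmp4, Bmpr1a, Bmpr2, Acvr1, Smad1 and Smad5) and 2 lower (Hamp and Atoh8), beside 15.7% of all genes called, 7.77% higher and 7.96% lower. At 10 h, 5 were higher (Bmp4, Bmpr2, Acvr1, Smad1 and Smad5), beside 9.13% called and 5.07% higher. The median difference over the 10 members was 0.18 at 1 h, 0.22 at 3 h, 0.24 at 6 h and 0.16 at 10 h, whereas the median over all genes stayed between -0.03 and 0.00. Only 1 member, Bmp2, was called at none of the times. The count at 6 h fell from 8 to 5 without the second treated array and to 5 without the second untreated array of that time, and the count at 10 h fell from 5 to 3 without either treated array or without the first untreated array.

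**Figure D1:**
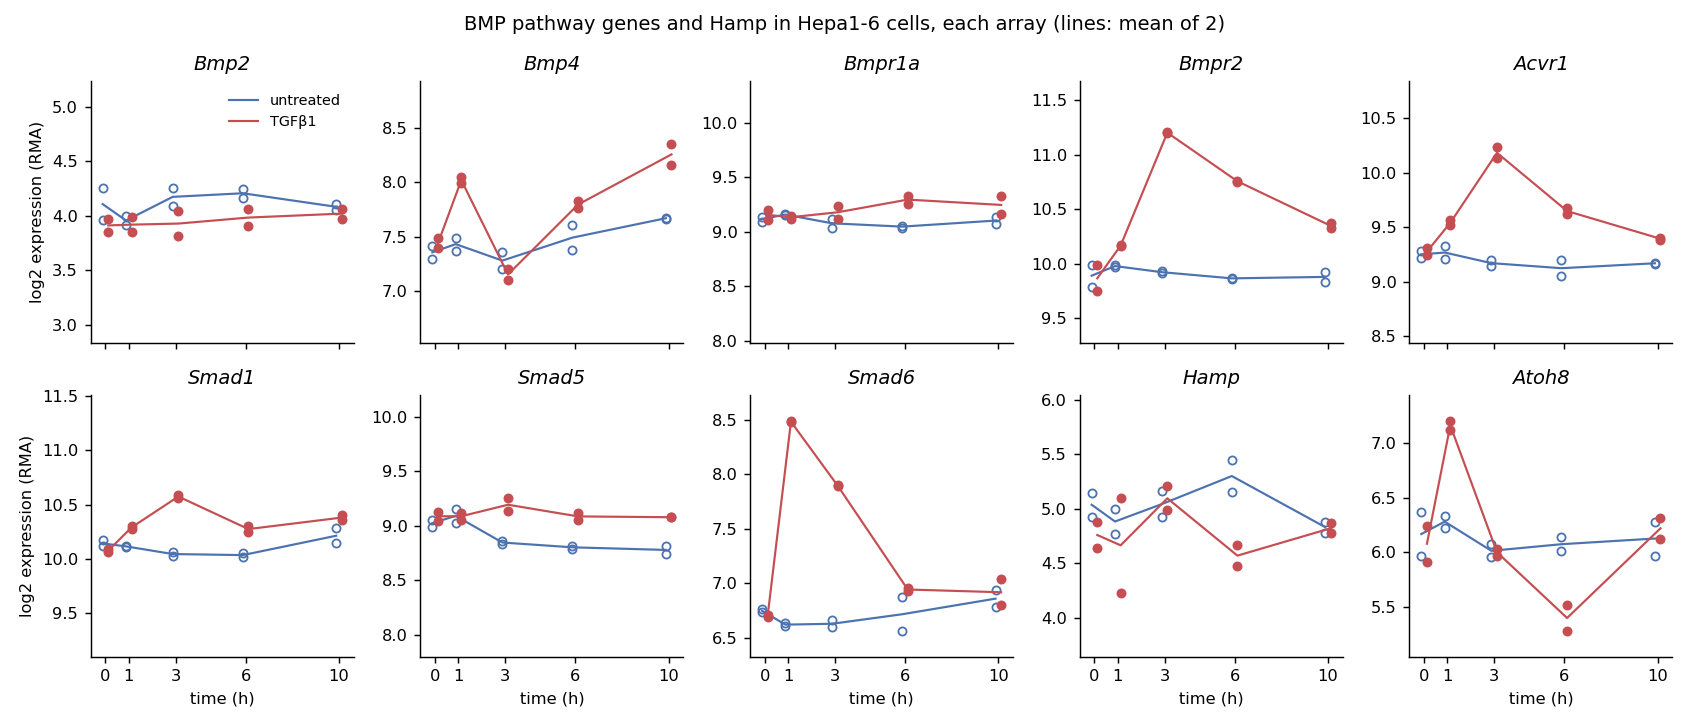
Log2 intensity of the 10 members on every array against hours of culture, with open blue symbols for untreated cells, filled red symbols for cells given TGFβ1, and lines through the means of the 2 arrays; each panel spans 2.4 log2 units at its own level. Smad6 and Atoh8 rise to a peak at 1 h, Bmpr2, Acvr1 and Smad1 at 3 h, and Bmp4 is high at 1 and 10 h with a dip at 3 h.

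The ligand Bmp4, a BMP made by many tissues, was higher in treated cells at 1, 6 and 10 h and not at 3 h. Untreated cells gave 7.42 and 7.30 at 0 h, 7.37 and 7.49 at 1 h, 7.20 and 7.36 at 3 h, 7.61 and 7.38 at 6 h, and 7.66 and 7.68 at 10 h. Treated cells gave 7.48 and 7.39, 7.99 and 8.05, 7.20 and 7.11, 7.83 and 7.76, and 8.35 and 8.16 at the same times. The treated arrays lay above both untreated arrays at 1, 6 and 10 h, and at 3 h they lay at or just under the lower untreated array. The difference was 0.59 ± 0.09 at 1 h, a 1.50-fold rise (limma, adjusted p = 0.00033), and 0.59 at 10 h (adjusted p = 0.000211). At 3 h it was -0.13 (adjusted p = 0.46), and this fall of the effect by 0.71 ± 0.13 between 1 and 3 h was itself past the threshold (adjusted p = 0.00111). The rise of the effect from 3 to 6 h, 0.43 ± 0.13, was not (adjusted p = 0.0689). The smaller difference at 6 h, 0.30 (adjusted p = 0.0278), lost its call without the first treated array (adjusted p = 0.168), the second treated array (adjusted p = 0.0724) or the second untreated array (adjusted p = 0.33), and when p-values were adjusted over all probe sets (adjusted p = 0.0507) or the arrays of 6 h were fitted alone (adjusted p = 0.0756).

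Bmp4 also moved with time in the untreated cells. It was 0.31 above its 0 h level at 10 h there (limma, adjusted p = 0.0146), a comparison in which 26.1% of all genes were called and 2 of the 10 members. That call was lost without the second untreated array of 0 h (adjusted p = 0.142) or either untreated array of 10 h (adjusted p = 0.0652 and 0.0737). In treated cells, which were compared with the treated 0 h arrays, Bmp4 was 0.82 higher at 10 h, a 1.76-fold rise (adjusted p = 6.47e-07). In that comparison 14.4% of all genes and 3 members (Bmp4, Bmpr2 and Smad1) were called as higher. At 3 h, where 15.8% of all genes and 5 members were called in that course, Bmp4 was the only member called as lower than its treated 0 h level, at -0.28 (adjusted p = 0.0401), and the call was lost without any of the 4 arrays (adjusted p = 0.0705 to 0.230).

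Bmp2, the other ligand among the members and, in liver, a product mainly of endothelial cells, was dim on every array. Its values ran from 3.92 to 4.26 in untreated cells and from 3.82 to 4.07 in treated cells, below the lowest array median of 5.15. Treated cells were not called different at any time, and the lowest adjusted p after 0 h was 0.306, at 3 h, for a difference of -0.25 ± 0.14.

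Among 14 other measured BMP and GDF ligands, 1 was called as higher at 3 h. At both 6 and 10 h, 1 was higher and 1 lower. Of all genes, 8.55% were called as lower at 3 h and 4.06% at 10 h. These shares, with those given beside the member counts, are the background for this and the later list counts. Bmp7, a ligand best known from kidney, had a mean of 8.51 and differed by -0.64 ± 0.09 at 6 h (limma, adjusted p = 2.43e-05) and -0.58 at 10 h (adjusted p = 0.000192). Bmp1, which despite its name is a protease that processes procollagen and the BMP antagonist chordin, was higher by 0.41 at 3 h, 0.48 at 6 h and 0.64 at 10 h. Leaving out 1 array ended the Bmp1 call at 3 h (the first treated or first untreated array, adjusted p = 0.315 and 0.153) and at 6 h (the second of either group, adjusted p = 0.0701 and 0.0801). Bmp6, the ligand that liver endothelial cells raise with iron, had a mean of 4.63 and was called at no time.

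The type II receptor Bmpr2 showed the largest fold change of the receptors among the members. Untreated cells stayed between 9.79 and 9.99 on all 10 arrays. Treated cells gave 9.75 and 9.98 at 0 h, 10.16 and 10.17 at 1 h, 11.20 and 11.20 at 3 h, 10.76 and 10.75 at 6 h, and 10.37 and 10.32 at 10 h. From 1 h on, every treated array exceeded every untreated array of the time course. The difference was 0.19 ± 0.07 at 1 h (limma, adjusted p = 0.23), 1.28 at 3 h or 2.43-fold (adjusted p = 6.56e-12), 0.89 at 6 h or 1.85-fold (adjusted p = 2.11e-09), then 0.47 at 10 h or 1.38-fold (adjusted p = 5.25e-05). Against the untreated cells of 0 h, the 1 h difference was 0.28 and passed (adjusted p = 0.0173).

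Acvr1, the type I receptor also called ALK2, likewise had its largest difference at 3 h and its next largest at 6 h. Both were smaller than those of Bmpr2, whereas at 1 h the Acvr1 difference was the larger of the pair. Untreated cells lay between 9.05 and 9.32, and treated cells gave 9.25 and 9.31 at 0 h, 9.52 and 9.57 at 1 h, 10.23 and 10.13 at 3 h, 9.68 and 9.62 at 6 h, and 9.39 and 9.40 at 10 h. The treated arrays exceeded the untreated ones of their own time at 1, 3, 6 and 10 h. The difference was 0.27 ± 0.06 at 1 h (limma, adjusted p = 0.0102), 1.01 at 3 h or 2.02-fold (adjusted p = 5.10e-11), 0.52 at 6 h or 1.44-fold (adjusted p = 1.29e-06), then 0.22 at 10 h (adjusted p = 0.0185). The calls at 3 and 6 h held under every alternative tried. The 1 h call was lost when the 3 probe sets of the gene were averaged (0.17, adjusted p = 0.34), with no variance trend (adjusted p = 0.0574), in the arrays of 1 h alone (adjusted p = 0.0791), and without the second treated (adjusted p = 0.132) or second untreated array (adjusted p = 0.184). The 10 h call was lost without any of its 4 arrays (adjusted p = 0.0936, 0.106, 0.107 and 0.0965), and with averaged probe sets, no variance trend or the 0 h control (adjusted p = 0.0591, 0.065 and 0.0816).

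Bmpr1a, the type I receptor also called ALK3, moved little. Untreated cells lay between 9.04 and 9.17 and treated cells between 9.11 and 9.33, with the 2 treated arrays of 6 h at 9.33 and 9.26 against 9.06 and 9.04. Only that time was called, at 0.25 ± 0.06 or 1.19-fold (limma, adjusted p = 0.00763). Its call was lost without the first treated array (adjusted p = 0.095), without the second untreated array (adjusted p = 0.0544), or with its 6 probe sets averaged (0.17, adjusted p = 0.0652).

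The effects on Bmpr2 and Acvr1 were largest at 3 h, and that on Bmpr1a at 6 h. Between 1 and 3 h the treated minus untreated difference grew by 1.09 ± 0.09 for Bmpr2 (limma, adjusted p = 8.83e-08) and by 0.74 ± 0.08 for Acvr1 (adjusted p = 4.75e-06). Along with Smad1 and Smad5 they were 4 members whose effect moved up in that interval, beside 2.47% of all genes, and 3 members (Bmp4, Smad6 and Atoh8) whose effect moved down, beside 3.94%. From 3 to 6 h the effect fell by 0.39 for Bmpr2 (adjusted p = 0.0163) and by 0.49 for Acvr1 (adjusted p = 0.00141). Smad1 and Smad6 also fell there, 4 members in all beside 1.69% of all genes. From 6 to 10 h Bmpr2 fell by a further 0.42 (adjusted p = 0.0129), the only member called in that interval, beside 1.33% of all genes called as lower. The Bmpr2 call from 3 to 6 h had adjusted p values of 0.0507 to 0.0571 without either treated array of 3 or 6 h or the second untreated array of 3 or 6 h. The Bmpr2 call from 6 to 10 h was lost without the second treated (adjusted p = 0.0759) or second untreated array of 10 h (adjusted p = 0.0852). Averaging probe sets ended both (adjusted p = 0.301 and 0.209), as did leaving out the variance trend (adjusted p = 0.0963 and 0.101), and averaging also ended the Acvr1 call (adjusted p = 0.292). These intervals share the arrays of their common time.

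Among 14 other receptors and co-receptors of the superfamily, 1 was called as higher at 1 h, 2 as higher and 4 as lower at 3 h, 1 and 2 at 6 h, and 2 and 1 at 10 h. Tgfbr1, the type I receptor of TGFβ itself, was higher by 0.39, 1.00, 0.73 and 0.25 at 1, 3, 6 and 10 h. Its 10 h call was lost without the first treated (limma, adjusted p = 0.311) or second untreated array (adjusted p = 0.186), and against untreated cells of 0 h the value was -0.19. Tgfbr3, the co-receptor betaglycan, differed by -0.72 at 3 h, -1.52 or 2.86-fold lower at 6 h (limma, adjusted p = 4.90e-10) and -1.28 at 10 h, and with its probe sets averaged the 6 h value was -0.90. Bmpr1b, a type I receptor of BMPs with a mean of only 5.33, differed by -0.81 ± 0.19 at 3 h (adjusted p = 0.00526), then -0.60 at 6 h (adjusted p = 0.041). Tgfbr2, the type II receptor of TGFβ, differed by -0.17 at 3 h (adjusted p = 0.0352), then 0.23 at 10 h (adjusted p = 0.00796). The Bmpr1b calls were lost at 3 h without the second treated or first untreated array (adjusted p = 0.117 and 0.0531) and at 6 h without either treated or the first untreated array (adjusted p = 0.0652, 0.249 and 0.283). The Tgfbr2 call at 3 h was lost without any of its 4 arrays (adjusted p = 0.112 to 0.163), and that at 10 h without the first treated or first untreated array (adjusted p = 0.189 and 0.0855).

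**Figure D2:**
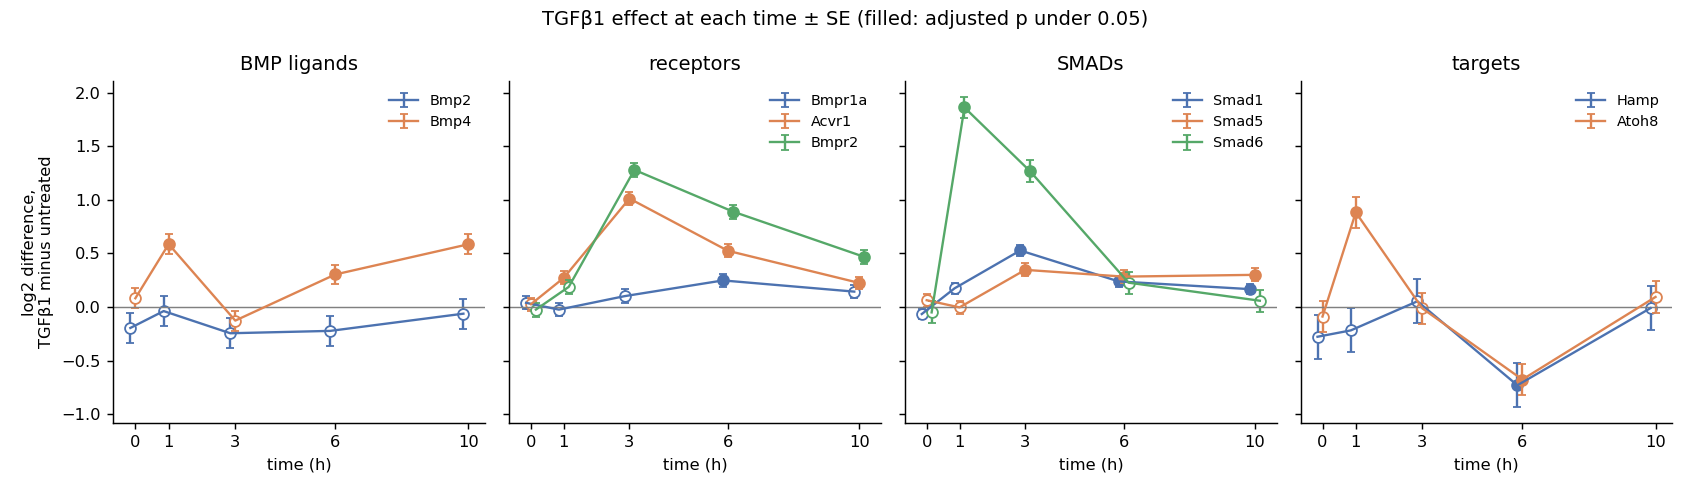
Treated minus untreated log2 difference with its SE at 0, 1, 3, 6 and 10 h for each member, panelled by role; filled symbols have an adjusted p under 0.05. Smad6 reaches 1.86 at 1 h, Bmpr2 1.28 and Acvr1 1.01 at 3 h, and Hamp and Atoh8 are below 0 at 6 h.

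The transducer Smad1 was above the untreated cells of the same time at 3, 6 and 10 h. Untreated cells gave 10.07 and 10.03 at 3 h, 10.02 and 10.05 at 6 h, and 10.14 and 10.28 at 10 h. Treated cells gave 10.56 and 10.58, 10.30 and 10.24, and 10.36 and 10.41. The groups were apart at these times, with the narrowest gap at 10 h. The difference was 0.17 ± 0.05 at 1 h (limma, adjusted p = 0.0802), 0.53 at 3 h or 1.44-fold (adjusted p = 6.82e-08), 0.24 at 6 h (adjusted p = 0.00143), then 0.17 at 10 h (adjusted p = 0.0362). The effect grew by 0.35 ± 0.07 from 1 to 3 h (adjusted p = 0.00223) and fell by 0.29 from 3 to 6 h (adjusted p = 0.0176). The 6 h call was lost against the untreated cells of 0 h (0.13, adjusted p = 0.0595). The 10 h call was lost without the first or second treated array (adjusted p = 0.0907 and 0.236) or the first untreated array (0.10, adjusted p = 0.463). It was also lost with p-values adjusted over all probe sets, no variance trend, or the arrays of 10 h alone (adjusted p = 0.0764, 0.121 and 0.077). The fall from 3 to 6 h was lost without the second array of any of its 4 groups, with adjusted p values from 0.0635 to 0.0857, and with averaged probe sets (adjusted p = 0.155) or no variance trend (adjusted p = 0.0911). With probe sets averaged, the 1 h difference was 0.22 and passed (adjusted p = 0.0369).

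Smad5, the other transducer, was above the untreated cells of the same time at 3, 6 and 10 h. Untreated cells gave 8.99 and 9.05 at 0 h, 9.02 and 9.15 at 1 h, 8.83 and 8.86 at 3 h, 8.79 and 8.81 at 6 h, and 8.74 and 8.81 at 10 h. Treated cells gave 9.05 and 9.13, 9.05 and 9.12, 9.25 and 9.13, 9.06 and 9.11, and 9.08 and 9.07. The treated arrays were thus above the untreated ones from 3 h on, and the untreated arrays of 3, 6 and 10 h were below those of 0 h. The difference was 0.35 ± 0.06 at 3 h or 1.27-fold (limma, adjusted p = 0.000269), 0.28 at 6 h (adjusted p = 0.00204), then 0.30 at 10 h (adjusted p = 0.00236).

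The control course of Smad5 bears on these values. In untreated cells Smad5 differed from 0 h by -0.22 at 6 h (limma, adjusted p = 0.0115), when 10.3% of all genes and 1 member were called as lower, and by -0.25 at 10 h (adjusted p = 0.00397). In its brightest probe set, treated cells at 10 h differed from treated cells at 0 h by -0.01, and Smad5 was called at no time in that course. The 3 sets of Smad5 were not alike there: 1451873_a_at differed by 0.25 at 3 h (adjusted p = 0.0648 over all probe sets) and by -0.32 at 10 h (adjusted p = 0.00819), and the average of the sets was called at 3 h, at 0.19 (adjusted p = 0.0478). Set against the untreated cells of 0 h, the treated level was 0.17 higher at 3 h (adjusted p = 0.0658), 0.06 at 6 h (adjusted p = 0.582), then 0.05 at 10 h (adjusted p = 0.611), so none of the 3 calls held against that control. The fall in untreated cells lost its call at 6 h without the second array of 0 h (adjusted p = 0.107) or the first of 6 h (adjusted p = 0.0678), and at 10 h without the first array of 10 h (adjusted p = 0.059). The growth of the effect from 1 to 3 h, 0.35 ± 0.09 (adjusted p = 0.0139), was lost without either of the first 3 h arrays (adjusted p = 0.0878 for the treated one and 0.0555 for the untreated one), the first treated or second untreated array of 1 h (adjusted p = 0.0691 and 0.0914), and with averaged probe sets or the compared arrays alone (adjusted p = 0.115 and 0.0555).

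Smad6, an inhibitory SMAD that binds type I receptors and competes with Smad4 for activated Smad1, showed the largest difference of any member. Untreated cells lay between 6.56 and 6.93 on all 10 arrays. Treated cells gave 6.68 and 6.71 at 0 h, 8.49 and 8.47 at 1 h, 7.90 and 7.89 at 3 h, 6.93 and 6.95 at 6 h, and 7.04 and 6.79 at 10 h. The 4 treated arrays of 1 and 3 h stood above the brightest untreated array of the whole course, and those of 10 h overlapped the untreated range. The difference was 1.86 ± 0.10 at 1 h or 3.64-fold (limma, adjusted p = 4.02e-11), 1.27 at 3 h or 2.41-fold (adjusted p = 7.81e-09), 0.23 at 6 h (adjusted p = 0.157), then 0.06 at 10 h (adjusted p = 0.843). It fell by 0.60 ± 0.14 from 1 to 3 h (adjusted p = 0.0126), by 1.04 from 3 to 6 h (adjusted p = 0.000165) and by 1.80 from 1 to 10 h (adjusted p = 4.04e-08). With Atoh8, Smad6 was 1 of 2 members whose effect fell from 1 to 10 h, beside 2.4% of all genes. The fall from 1 to 3 h lost its call without the second untreated array of 3 h (adjusted p = 0.0561). The 6 h difference was called without the first untreated array of 6 h, at 0.38 (adjusted p = 0.0267).

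The genes whose 10 group means followed Smad6 most closely, among 1230 genes with a standard deviation of group means of at least 0.3, were Erf and Dusp2 (Pearson r of 0.989 each), Cish (0.975), Smad7 and Gadd45b (0.967 each). These values describe 10 points that share the same 20 arrays. Erf is an ETS-domain repressor, Dusp2 a phosphatase of MAP kinases, Cish a suppressor of cytokine signalling and Gadd45b a stress-response gene. Smad7 is the inhibitory SMAD that acts on TGFβ as well as BMP receptors.

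Among 20 other SMADs and SMAD regulators, 5 were called as higher and none as lower at 1 h, 8 and 2 at 3 h, 5 and 0 at 6 h, and 5 and 1 at 10 h. Their median difference was 0.08 at 1 h and 0.19 at 3 h. Smad7 was higher by 2.45 ± 0.07 or 5.48-fold at 1 h (limma, adjusted p = 6.43e-16), by 1.49 at 3 h, 1.10 at 6 h and 0.42 at 10 h. Skil, the nuclear SMAD co-repressor SnoN, was higher by 2.27 at 1 h and by 3.06 or 8.33-fold at 3 h (adjusted p = 3.08e-17), and still by 1.73 at 10 h. Smurf2, a ubiquitin ligase for SMADs and their receptors, was higher by 0.25, 0.74 and 0.36 at 1, 3 and 6 h. Smad2, a transducer of TGFβ, differed by -0.57 ± 0.06 at 3 h (adjusted p = 1.28e-07), then 0.22 at 10 h (adjusted p = 0.0144). The Smurf2 call at 1 h was lost without the second treated array or either untreated array (adjusted p = 0.214, 0.105 and 0.0655), and the Smad2 call at 10 h without any of its 4 arrays (adjusted p = 0.0761 to 0.101).

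Extracellular and membrane antagonists of BMPs and activins formed a list of 18 measured genes, of which 2 were called as higher at each of 1, 3, 6 and 10 h, 1 as lower at 3 h and 2 as lower at 10 h. Fstl3, a secreted inhibitor of activins, was higher by 1.34 ± 0.11 or 2.53-fold at 1 h, by 1.99 or 3.97-fold at 3 h (limma, adjusted p = 2.96e-11) and by 1.38 at 6 h. At 10 h its difference was 0.15 (adjusted p = 0.526). Fst, the gene of follistatin, was higher by 0.32, 0.70, 0.83 and 0.32 at 1, 3, 6 and 10 h, all called. Bambi, a decoy receptor, was called at 10 h only, when it differed by -0.51 ± 0.10 (adjusted p = 0.00133). Crim1, a membrane protein that binds BMPs, differed by -0.33 at 3 h (adjusted p = 0.025), then 0.36 at 10 h (adjusted p = 0.0239). The Fst call at 1 h was lost without the first treated or second untreated array (adjusted p = 0.0629 and 0.0844). The Crim1 calls were lost at 3 h without the second treated or first untreated array (adjusted p = 0.214 and 0.400), and at 10 h without either treated or the second untreated array (adjusted p = 0.218, 0.0525 and 0.273).

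The targets among the members were Atoh8, a basic helix-loop-helix factor that responds to BMP and iron in liver, and Hamp. Atoh8 was higher in treated cells at 1 h and lower at 6 h. Untreated cells lay between 5.95 and 6.37 on all 10 arrays, with 6.23 and 6.34 at 1 h and 6.01 and 6.14 at 6 h. Treated cells gave 6.24 and 5.91 at 0 h, 7.12 and 7.20 at 1 h, 5.97 and 6.03 at 3 h, 5.52 and 5.28 at 6 h, and 6.12 and 6.32 at 10 h. The treated arrays of 1 h were above, and those of 6 h below, every untreated array of the time course.

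The Atoh8 difference was 0.88 ± 0.15 at 1 h or 1.84-fold (limma, adjusted p = 0.000676), -0.01 at 3 h (adjusted p = 0.977), -0.68 at 6 h or 1.60-fold lower (adjusted p = 0.00242), then 0.09 at 10 h (adjusted p = 0.825). Its fall of 0.90 ± 0.21 from 1 to 3 h was past the threshold (adjusted p = 0.00958), as was that of 0.79 from 1 to 10 h (adjusted p = 0.0356). The further changes of -0.66 from 3 to 6 h and 0.77 from 6 to 10 h were not (adjusted p = 0.082 and 0.0583). The 6 h call missed the threshold without the second treated array, at -0.56 (adjusted p = 0.0504). The fall from 1 to 10 h was lost without either treated or either untreated array of 1 h, or the first treated or untreated array of 10 h, with adjusted p values from 0.0593 to 0.205. It was also lost with p-values adjusted over all probe sets (adjusted p = 0.0638) and with no variance trend (adjusted p = 0.0788). In the treated course alone Atoh8 was 1.09 above its 0 h level at 1 h (adjusted p = 5.11e-05), where 2.45% of all genes and 6 members were higher. It differed from that level by -0.68 at 6 h (adjusted p = 0.00144), where 24% of all genes and 5 members were called. The count of 6 fell to 3 without the first treated array of 0 h or the second of 1 h, and that of 5 to 3 without the first treated array of 6 h.

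The genes nearest to Atoh8 over the 10 group means were Hes1 (r of 0.907), Id2 (0.900), Mafk (0.877), Dmrt2 (0.865) and Sertad1 (0.842). Id2 is 1 of the inhibitors of differentiation, helix-loop-helix proteins without a DNA-binding domain whose genes are standard readouts of BMP signalling. Id1 was higher by 1.80 ± 0.05 or 3.47-fold at 1 h (limma, adjusted p = 1.26e-16) and by 0.42 at 3 h, and differed by -0.17 at 6 h (adjusted p = 0.0152). Id2 was higher by 2.34 or 5.05-fold at 1 h (adjusted p = 3.50e-13) and differed by 0.13 at 3 h (adjusted p = 0.493), then -0.75 at 6 h (adjusted p = 6.88e-06). Id3 was higher by 1.80 or 3.48-fold at 1 h and differed by -0.74 at 3 h, -1.40 or 2.64-fold lower at 6 h (adjusted p = 3.44e-12), then -0.33 at 10 h. These 3 were the only genes called as higher at 1 h, and as lower at 6 h, among 17 other BMP and SMAD targets. The Id1 call at 6 h was lost without the first treated array or either untreated array (adjusted p = 0.110, 0.0679 and 0.0773), and the Id3 call at 10 h without the first array of either group (adjusted p = 0.0746 and 0.0556). The choice of control mattered for these genes: against the untreated cells of 0 h, Id1 was 0.59 higher at 6 h (adjusted p = 4.31e-09), Id3 0.14 higher at 3 h and 1.32 higher at 10 h (adjusted p = 1.16e-11). The lower Id3 level at 6 h was -0.20 against that control (adjusted p = 0.0344).

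The nearest genes to Bmp4 over the group means were Nr4a2 (0.863), Il17rd (0.835), Ppargc1a (0.828), Prkg2 (0.807) and Metrnl (0.798).

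Hamp was dim, and its 2 probe sets disagreed. The brighter one, 1419197_x_at, gave 5.15 and 4.92 in untreated cells at 0 h, 4.99 and 4.77 at 1 h, 5.16 and 4.92 at 3 h, 5.15 and 5.45 at 6 h, and 4.88 and 4.78 at 10 h. Treated cells gave 4.88 and 4.64, 5.10 and 4.23, 4.98 and 5.21, 4.67 and 4.47, and 4.78 and 4.86. At 6 h both treated arrays were below both untreated arrays, and the treated duplicates of 1 h lay furthest apart. The difference was -0.22 ± 0.21 at 1 h (limma, adjusted p = 0.861), 0.05 at 3 h (adjusted p = 0.927), -0.73 at 6 h or 1.66-fold lower (adjusted p = 0.0168), then -0.01 at 10 h (adjusted p = 0.99).

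The other Hamp probe set, 1419196_at, read 3.56 and 3.18 in untreated and 3.30 and 3.48 in treated cells at 6 h, so the groups overlapped, and its difference was 0.02 ± 0.22 (limma, adjusted p = 0.986 over all probe sets). Both sets had mean levels under the lowest array median, 4.90 and 3.58 against 5.15, and an x in a set's name marks probes that can match other transcripts. Mouse has a near-identical neighbour, Hamp2, so the source of this signal is uncertain. The 6 h call was lost with the sets averaged (-0.36, adjusted p = 0.105), against the untreated cells of 0 h (-0.47, adjusted p = 0.117), without the second treated array (-0.63, adjusted p = 0.133) and without the second untreated array (-0.58, adjusted p = 0.168). Some hepatocyte markers moved at the same time, with 4 of 13 lower, 1 higher and 8 not called at 6 h. Among the lower ones were Alb at -0.39 (adjusted p = 0.000106), Afp at -0.46 and Fgb, a fibrinogen chain, at -0.78. Against the untreated cells of 0 h, Alb differed by 0.020 and Fgb by -0.062 at 6 h, neither of them called (adjusted p = 0.892 and 0.745). The summed log2 level of the 13 ran from 101.9 to 104.5 over the untreated groups and from 102.1 to 102.9 over the treated groups. The part of these markers in the Hamp value was not tested, and in RNA from whole cultures fewer expressing cells and less RNA per cell cannot be told apart. The genes nearest to Hamp over the group means were Ppic (r of 0.816) and Acaa1b (0.802), followed by Necab1, Cebpd and Angpt1 at 0.624, 0.597 and 0.575.

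Promoter windows from RefSeq on GRCm38.p6, running from 250 bases before to 50 after the transcript start, were found for 9 of the 10 members. The stretches below are shown because they carry SMAD, STAT or E-box letters in genes whose values are given above. All are written 5′ to 3′ on the gene's own strand, and capitals mark the motif matches. The Hamp stretch is chr7:30944030-30944179 on the minus strand, the last 150 bases before its start. The Bmpr2 stretch is chr1:59764149-59764208 on the plus strand, and the Atoh8 stretch is chr6:72235768-72235827 on the minus strand, both of 60 bases. The Smad6 stretch is chr9:64022045-64022074 on the minus strand, 30 bases with the start in their middle.
Hamp: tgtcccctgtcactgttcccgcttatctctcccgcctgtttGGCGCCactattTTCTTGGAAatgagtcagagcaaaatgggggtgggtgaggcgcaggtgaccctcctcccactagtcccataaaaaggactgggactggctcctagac
Bmpr2: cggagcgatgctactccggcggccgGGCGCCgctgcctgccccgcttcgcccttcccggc
Atoh8: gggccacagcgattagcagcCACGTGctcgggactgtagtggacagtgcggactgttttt
Smad6: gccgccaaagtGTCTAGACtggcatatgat

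Motifs were searched on both strands, and a match is a match of letters only. A member counted if any of its windows matched (Smad5 had 3 windows), whereas the percentages below are shares of single windows. GGCGCC, the GC-rich site bound by Smad1 and Smad5 in BMP response elements, lay at -109 to -104 in Hamp and -105 to -100 in Bmpr2, and also in Bmpr1a and Smad5, so that 4 of 9 members held it beside 11.9% of 32851 windows. In Hamp it stood shortly before TTCTTGGAA at -97 to -89, a match to the STAT letters TTCNNNGAA found in 1 of 9 members and 8.3% of windows. The SMAD box CAGAC occurred in Hamp and Smad5, 2 of 9 members, against 49.6% of windows. The E-box CACGTG occurred in Atoh8 and Bmp4 and in 7.15% of windows. Counted by gene, of 27025 genes 3617 held GGCGCC, 2582 TTCNNNGAA, 14378 CAGAC and 2187 CACGTG. The palindrome GTCTAGAC, made of the SMAD half-site AGAC and its reverse complement, spanned the Smad6 start and occurred in 1 of 9 members and 0.213% of windows, and it was searched for after the sequences had been seen. Acvr1 and Smad1, whose levels rose with Bmpr2, held none of these letters in the window.

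At 3 h the other probe sets above the lowest array median mostly followed the brightest set of their gene. Tested on their own over all probe sets, 4 of the 24 were called at 1 h, all higher, beside 1.47% of all probe sets. At 3 h 11 were called, all higher, beside 9.03%. At 6 h 9 were higher and 2 lower, beside 8.96%, and at 10 h 4 were higher, beside 4.57%. The sets called at 1 h were the brightest or only sets of Bmp4, Acvr1, Smad6 and Atoh8. Those called at 10 h were the brightest or only sets of Bmp4, Bmpr2, Acvr1 and Smad5. No other set of a member was called at 1 or 10 h. Of the 6 probe sets whose mean lay under the lowest array median of 5.15, none was called at 1, 3 or 10 h and 1, for Hamp, at 6 h. Of the 18 above it, 4, 11, 10 and 4 were called at 1, 3, 6 and 10 h.

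At 3 h the differences in the brighter sets of Bmpr2, Acvr1, Smad1 and Smad5 were close in size within each gene. Bmpr2 gave 1.28 ± 0.07 and 1.44 ± 0.12 in its brighter sets, at means of 10.19 and 8.90, and 0.06 ± 0.18 in the set at 4.73. Acvr1 gave 1.01 and 1.07 in the sets at 9.40 and 6.84, and -0.50 ± 0.16 in the set at 4.81, which was not called (limma, adjusted p = 0.0569 over all probe sets). All 3 Smad1 sets were called, at 0.53, 0.42 and 0.48, and the Smad5 sets gave 0.35, 0.36 and 0.35, the last of them uncalled (adjusted p = 0.146). Of 6 Bmpr1a sets only 1425494_s_at was called at 3 h, at 0.22 (adjusted p = 0.0475), where the brightest set, 1425492_at, gave 0.10. Only 1425492_at was called at 6 h (adjusted p = 0.0187).

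**Figure D3:**
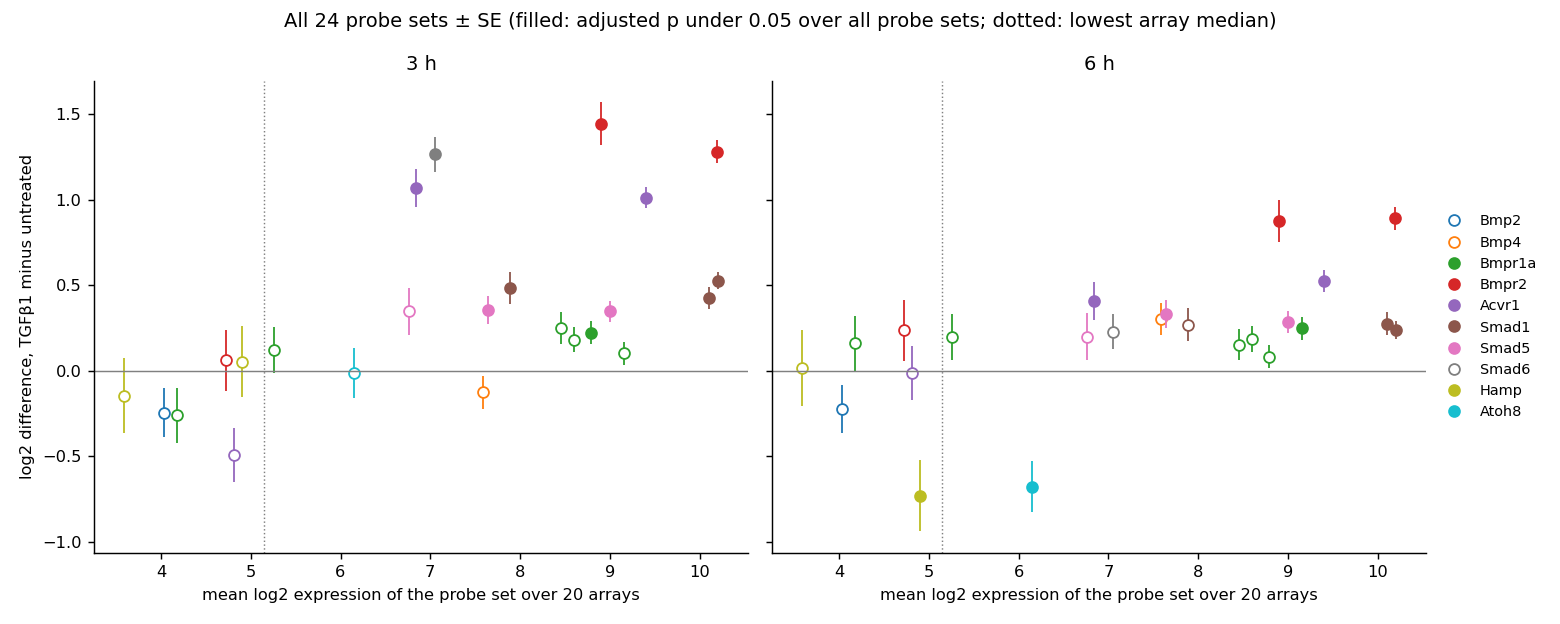
Treated minus untreated log2 difference at 3 h and at 6 h against mean log2 intensity for the 24 probe sets of the members, coloured by gene; the dotted line is the lowest array median, 5.15. Of the 6 sets left of the line, only a Hamp set at 6 h (-0.73) was called.

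Genes that act on hepcidin in hepatocytes and genes of iron handling were read beside the members. Of 16 measured regulators of hepcidin, 3 were higher at 1 h, 2 higher and 1 lower at 3 h, 2 higher at 6 h and 1 higher at 10 h. Furin, the protease that cleaves prohepcidin and hemojuvelin, was higher by 0.58, 1.31, 1.16 and 0.53 at 1, 3, 6 and 10 h, 2.47-fold at 3 h (limma, adjusted p = 1.49e-09). Socs3, a feedback inhibitor of STAT3 signalling, was higher by 1.12 at 1 h and differed by -0.42 at 3 h. Il6ra, the receptor of the hepcidin-inducing cytokine interleukin 6, was higher by 0.43, 0.65 and 0.45 at 1, 3 and 6 h. That call at 1 h was lost without any of its 4 arrays (adjusted p = 0.0758 to 0.164), and against untreated cells of 0 h Il6ra differed by -0.019 at 3 h and by -0.38 at 6 h. Hjv, the BMP co-receptor hemojuvelin, with a mean of 4.88, Tfr2, the iron-sensing transferrin receptor, and Tmprss6, the protease that cleaves hemojuvelin, were called at no time.

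Among 22 iron genes none was called at 1 h, and 1 was higher and 5 lower at 3 h. At both 6 and 10 h, 3 were higher and 2 lower. Over all genes 6.73% were higher and 8.55% lower at 3 h, 7.77% and 7.96% at 6 h, and 5.07% and 4.06% at 10 h. Slc40a1, the gene of ferroportin, was higher by 0.39 ± 0.05 at 3 h (limma, adjusted p = 1.03e-05), 0.66 or 1.58-fold at 6 h (adjusted p = 6.56e-09), then 0.59 at 10 h (adjusted p = 8.97e-08). Flvcr1, a haem exporter, differed by -0.38 at 3 h and -0.23 at 6 h, and Ncoa4, which delivers ferritin for breakdown, by -0.34 at 3 h. Tfrc, the transferrin receptor, differed by -0.29 ± 0.04 at 6 h (adjusted p = 6.86e-05), then -0.15 at 10 h (adjusted p = 0.0311). The Tfrc call at 6 h was lost against the untreated cells of 0 h (-0.073, adjusted p = 0.294) and with averaged probe sets (-0.20, adjusted p = 0.130). Its call at 10 h was lost without the first treated array or either untreated array (adjusted p = 0.355, 0.0752 and 0.244), and against untreated cells of 0 h the value was 0.035. That control gave Ncoa4 -0.20 at 6 h (adjusted p = 0.00658).

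**Figure D4:**
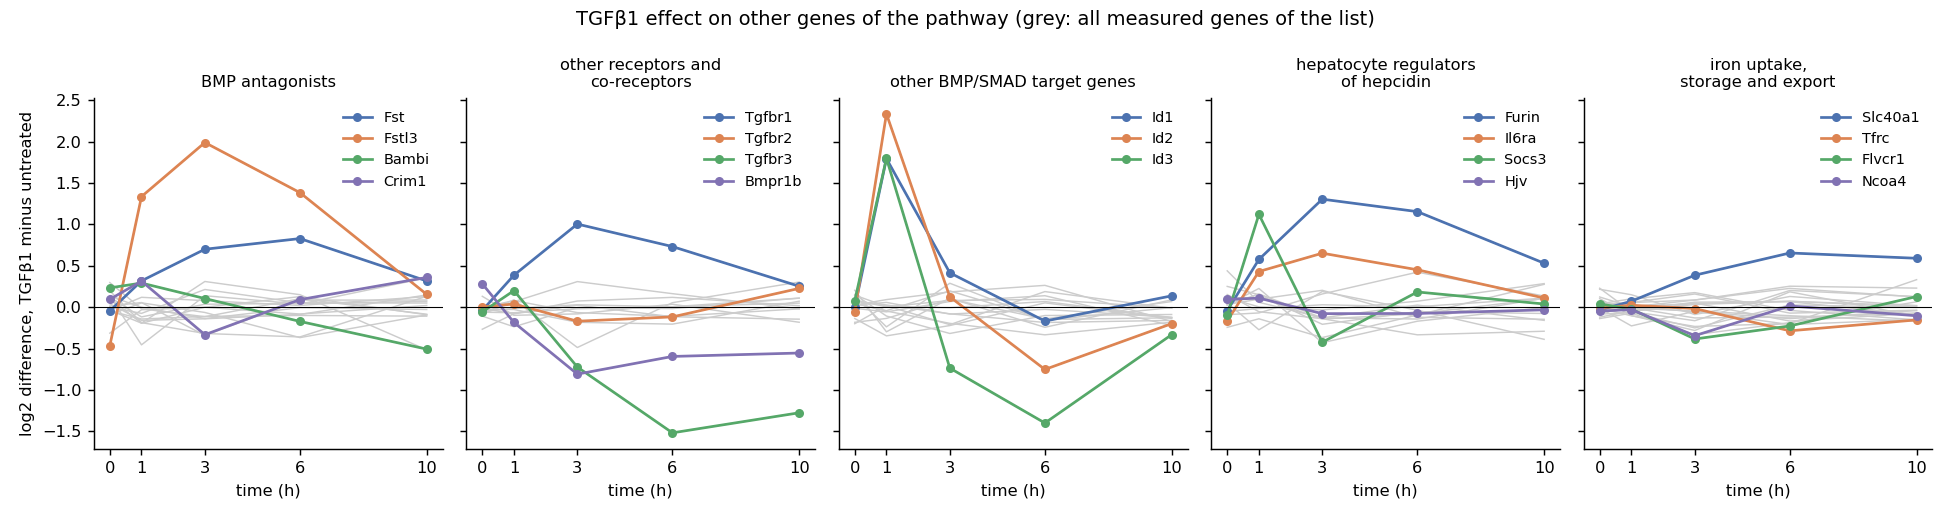
Treated minus untreated log2 difference at 0, 1, 3, 6 and 10 h for 5 lists of pathway genes, with a grey line for each measured gene and coloured lines for those named. Id1, Id2 and Id3 peak at 1 h and are below the untreated cells of the same time at 6 h.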

How the data were processed

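The authors deposited 1 table of log2 expression values for 45037 probe sets on 20 Affymetrix arrays, made with RMA per the submitters' processing notes; background correction and normalization across arrays compress differences of dim probe sets. The values were used as deposited, and array background levels were not available in them. Total RNA was labelled with biotin, per the labels' protocols. Probe sets were named through the platform annotation, updated through RefSeq: 34945 had 1 gene, 932 several and 9160 none, and 162 of the 18194 genes were not found in RefSeq. The probe set with the highest mean stood for each gene. limma 3.58.1 in R 4.3.3 fitted 1 mean per group over all 20 arrays (10 residual degrees of freedom, eBayes with a variance trend), and p-values were adjusted by Benjamini-Hochberg over all genes, or over all probe sets where each was tested. Contrasts were treated minus untreated at each time, changes of that difference between times, and each course against its own 0 h; they share arrays. The number of arrays, 2 per group, limits the precision: the median SE at 1 h was 0.126. On simulated data of this design at 1 h with 18194 genes, 58.2% of genes changed by 0.5 log2 units, 91% of those changed by 1 and 100% of those changed by 2 were recovered, with 7 false calls in 173. Of 185 genes in the lists, 172 were measured. From each pathway list up to 4 called genes were named, lowest adjusted p first, together with Id1, Id2, Id3, Smad7, Skil, Bambi, Hjv, Tfr2, Tmprss6, Bmp6, Tfrc and Slc40a1. The genes most like Smad6, Atoh8, Hamp and Bmp4 were the 5 with the highest Pearson r over group means. The members and lists were chosen with earlier results of these data known. Alternatives covered normalization, probe set choice, filters, variance model, array weights, replicate block, controls and each array left out.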

Additional observations from a re-analysis of the deposited data

Results flagged for a closer look

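For 7 members the difference between treated and untreated cells changed between times by the test of that change itself (limma, Benjamini-Hochberg over all genes, 2 arrays per group). From 1 to 3 h the difference grew by 1.09 ± 0.09 for Bmpr2, 0.74 ± 0.08 for Acvr1, 0.35 ± 0.07 for Smad1 and 0.35 ± 0.09 for Smad5. In the same interval it changed by -0.71 ± 0.13 for Bmp4, -0.60 ± 0.14 for Smad6 and -0.90 ± 0.21 for Atoh8. From 3 to 6 h it changed by -0.39 for Bmpr2, -0.49 for Acvr1, -0.29 for Smad1 and -1.04 for Smad6. From 6 to 10 h it changed by -0.42 for Bmpr2. From 1 to 10 h it changed by -1.80 for Smad6 and -0.79 for Atoh8.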

How the results depend on the processing

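Of the 22 calls of members between treated and untreated cells, 11 held under every alternative and 11 were lost under at least 1, and 3 of 28 uncalled differences were gained. Of 14 changes of effect 7 held, of 3 calls in the untreated course none, and of 19 in the treated course 13, and no called value changed direction. The count of members called between treated and untreated cells was 5 rather than 8 at 6 h against untreated cells of 0 h, and 3 rather than 5 at 10 h with that control or with no variance trend. With no variance trend the counts were 2 rather than 4 for the effect change from 3 to 6 h, 0 rather than 1 from 6 to 10 h, 1 rather than 2 from 1 to 10 h, and 3 rather than 6 for treated cells at 1 h against 0 h. With the probe sets of a gene averaged they were 1 from 3 to 6 h, 0 from 6 to 10 h, and 1 rather than 0 for untreated cells at 3 h against 0 h. The count from 6 to 10 h was 2 with further quantile normalization, with genes above the median level (which leaves out Bmp2, Hamp and Atoh8) and with array weights. The filter on level, and all 4 arrays of 0 h as the control, also gave 1 for untreated cells at 3 h, and p-values adjusted over all probe sets gave 1 from 1 to 10 h.

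With arrays left out 1 at a time, members called between treated and untreated cells numbered 3 to 4 at 1 h, 5 at 3 h, 5 to 9 at 6 h and 3 to 4 at 10 h. Effect changes numbered 6 to 7 from 1 to 3 h, 2 to 5 from 3 to 6 h, 0 to 2 from 6 to 10 h and 1 to 2 from 1 to 10 h. Calls in the untreated course numbered 0 to 1 at 6 h and 0 to 2 at 10 h, and in the treated course 3 to 5 at 1 h, 4 at 3 h, 3 to 5 at 6 h and 3 to 4 at 10 h. The count from 3 to 6 h was 2 without the second array of any of the 4 groups of 3 and 6 h, and that from 6 to 10 h was 0 without the second treated or untreated array of 10 h. In such fits the lone array of a group is assumed to vary like the other groups.

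For 31 named pathway and marker genes, 44 of 74 calls held under every alternative. Averaging probe sets ended calls of Afp, Tgfbr1, Smurf2 and Il6ra at 1 h, Afp, Bmp1, Tgfbr2, Tgfbr3 and Flvcr1 at 3 h, Bmp1, Il6ra, Flvcr1 and Tfrc at 6 h, and Crim1, Tgfbr1, Tgfbr2 and Tfrc at 10 h. The control of 0 h ended calls of Il6ra and Afp at 1 h, Crim1 and Tgfbr2 at 3 h, and Bmpr1b, Tfrc and Fgb at 6 h. Only that control turned a sign where either value was called. With it Id3 was 0.14 and Il6ra -0.019 at 3 h. At 6 h Smad2 was 0.20, Id1 0.59, Il6ra -0.38, Ncoa4 -0.20 and Alb 0.020. At 10 h Tgfbr1 was -0.19, Id2 0.70, Id3 1.32, Il6ra -0.63, Tfrc 0.035, Alb 0.012 and Fgb 0.25.

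Treated and untreated arrays with the same replicate number shared little: their deviations from group means correlated at 0.0137 to 0.103, against -0.154 to 0.207 over all pairs of groups, so the number was not treated as a pairing. With it as a replicate block the effect change from 6 to 10 h called 3 members rather than 1, adding Acvr1 (adjusted p = 0.0479) and Atoh8 (adjusted p = 0.0483), the change from 1 to 10 h added Smad5 (adjusted p = 0.0379), and no call of a member was lost. Brightness limits Bmp2 and Hamp, whose means lie under the lowest array median of 5.15.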
